A study of Mus musculus with 36 samples.

Results

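The subject is the untreated primary mouse myotube: the 3 control libraries of skeletal myotubes, of 36 libraries in the whole series, set against the 3 control libraries each of primary adipocytes, macrophages and hepatocytes. The libraries were picked by their sample labels, and the comparison was proposed with earlier results of these data known. The series compared β-hydroxybutyrate and butyrate with PBS in these 4 cell types, and every control culture had received PBS for 6 h.

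All cells came from C57Bl/6 male mice, whose ages are not given in the sources used here. Myoblasts of hindlimb muscle were expanded on Matrigel, passed over an uncoated flask to which fibroblasts stick first, and fused into myotubes in Ham's F-10 medium with horse serum. The adipocytes grew from stromal vascular cells of inguinal fat, the macrophages from bone marrow in L929-conditioned medium, and the hepatocytes were isolated by perfusion of the liver of C57BL/6NHsd mice and kept in Williams E medium. Cell type, medium, serum and time in culture therefore cannot be told apart in any comparison below, nor can the mouse substrain in that with hepatocytes. Whether the other cells shared a mouse colony is not stated. The labels number the replicates without saying that they were separate animals or cultures, so p-values measure the spread between these samples, which may be technical.

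Skeletal muscle fibres form when myoblasts, which already carry early members of the MyoD family of transcription factors, leave the cell cycle, switch on the later members and fuse into syncytia. The syncytium assembles sarcomeres, in which myosin thick filaments slide along actin thin filaments, and couples them to the surface membrane through calcium release channels. Myotubes grown without a nerve are known to resemble embryonic and neonatal fibres more than adult ones.

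The control libraries held between 18556757 and 23180266 estimated counts each, and 20618 to 20750 genes were detected in the myotube libraries. Levels are given as CPM, counts scaled to library size with the TMM method of edgeR. The lowest correlation of log2 CPM between myotube libraries was 0.9899, and their correlations with the other control libraries lay between 0.523 and 0.717. These are correlations across genes, which are not independent replicates.

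A gene was called when its edgeR quasi-likelihood test gave a Benjamini-Hochberg adjusted p below 0.05 and its fold difference was at least 2. Of 14951 genes tested, those with more than 1 CPM in at least 3 of the 12 control libraries, myotubes were higher than adipocytes in 3045 (20.4%) and lower in 2949 (19.7%). Against macrophages they were higher in 3915 (26.2%) and lower in 3258 (21.8%), and against hepatocytes higher in 4688 (31.4%) and lower in 3365 (22.5%). The 3 comparisons share the myotube libraries. A call in all 3 left 1824 genes higher in myotubes than in each other cell type (12.2%) and 776 lower than in each (5.19%). Of the 1824, 1557 were protein-coding and 667 were at least 16-fold higher in each comparison. A gene read in myotubes alone passes the filter through those libraries, so list counts below are over all members. Below, a gene is described as called when it passed in all 3 comparisons in the same direction.

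The 1824 higher genes took 25.9%, 28.0% and 27.8% of all counts in the myotube libraries and 1.68% to 2.41% in the other 9. The 776 lower genes took 1.63%, 1.44% and 1.35% in myotubes and 7.88% to 13.2% elsewhere. Over all tested genes, the median of the lowest of the 3 log2 differences was -0.71, the value to set beside the list medians below.

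The labelled cell type was checked on 4 markers. Myog, a transcription factor that commits myoblasts to differentiate, measured 912.5, 969.1 and 982.4 CPM in the myotube libraries and at most 0.398 in any other. Acta1, the skeletal α-actin, measured 6947.4, 8620.8 and 7794.6 CPM, against 3.53 to 4.07 in adipocytes, 5.42 to 7.84 in macrophages and 16.5 to 18.7 in hepatocytes. Myh3, the embryonic myosin heavy chain, measured 7818.0, 9765.6 and 9691.8 CPM and at most 4.84 elsewhere. For all 3 genes the groups did not overlap. Ckm, the creatine kinase that buffers ATP in muscle, measured 581.0, 673.7 and 701.7 CPM, with at most 0.398 elsewhere and no read in adipocytes. The difference was smallest against hepatocytes, where the log2 difference (± SE) was 11.54 ± 0.21 for Myog, 8.8 ± 0.15 for Acta1, 11.06 ± 0.33 for Myh3 and 11.18 ± 0.19 for Ckm. The edgeR adjusted p values were 7.88e-16, 3.39e-16, 1.57e-13 and 1.45e-14.

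**Figure D1:**
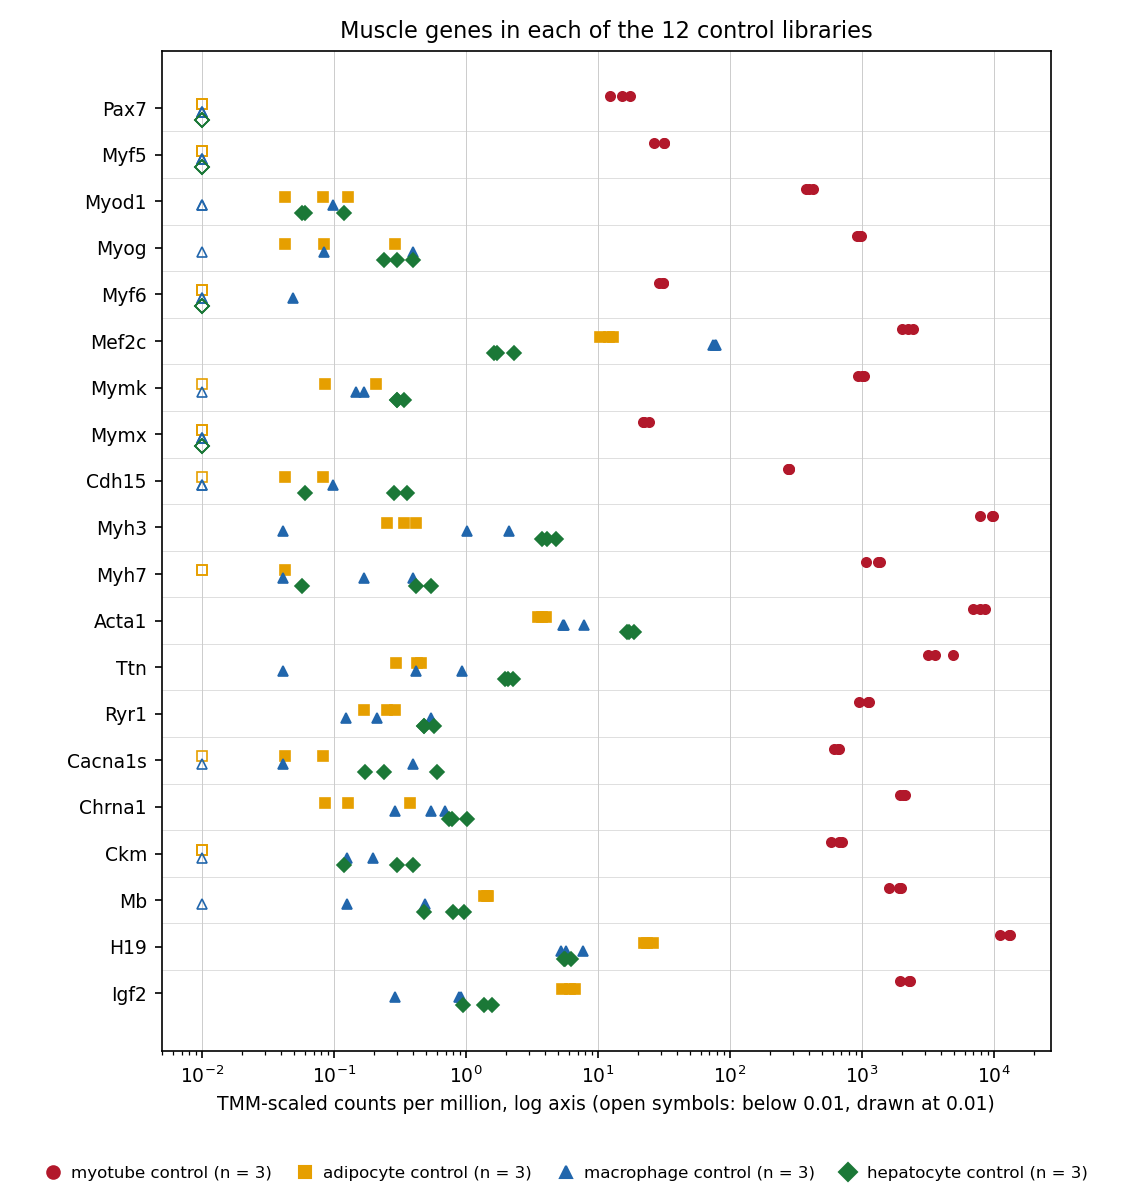
TMM-scaled CPM (x axis, log scale) of 20 muscle genes in the 12 control libraries, 1 symbol per library and 3 libraries per cell type, with open symbols for values below 0.01. The myotube libraries lie to the right of all others for every gene shown, from 12.3 to 17.5 CPM for Pax7 to 11195.2 to 13284.1 CPM for H19.

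The MyoD family, the bHLH factors that bind E-box motifs, was read in full. Myod1, active in myoblasts and early myotubes, measured 379.2, 426.4 and 397.8 CPM and at most 0.128 elsewhere. Myf5, which acts early in the lineage, measured 31.7, 26.6 and 31.5 CPM and Myf6, the factor of maturing fibres, 29.1, 31.3 and 31.3. Myf5 had no read in the other 9 libraries, which put it at least 508.3-fold higher than in hepatocytes when that group is set at 3 reads. Per kb of exon, Myog made up 71.5% ± 0.649 of the family (SD, n = 3), Myod1 24.1% ± 0.813, Myf6 2.71% ± 0.0119 and Myf5 1.61% ± 0.2, an order that held in each library. Myf5 and Myf6 lie beside each other on the minus strand of chromosome 10 (GRCm38, 107482908 to 107486134 and 107492853 to 107494737).

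Pax7, which marks satellite cells and undifferentiated myoblasts, was still read at 17.5, 12.3 and 15.1 CPM, and Pax3, its relative of the embryonic lineage, at 1.92, 1.52 and 1.37. Pax7 had no read in the other 9 libraries. Mef2c, a partner of the MyoD family, measured 1995.1, 2232.4 and 2432.1 CPM, against 76.4 ± 1.7 (SD, n = 3) in macrophages, a log2 difference of 4.86 ± 0.1 (SE, adjusted p = 4.46e-15). Mef2d and the homeodomain factor Six4 were also called. Mef2a was not, at 443.4, 425.3 and 472.0 CPM against 297.6 ± 7.98 in macrophages, nor was Eya1, a transcriptional cofactor, at 8.21, 8.73 and 8.42 against 33.7 ± 0.301. In all, 10 of 13 myogenic factors were higher than in each other cell type, 2 were not called and Msc was below the filter, and their median lowest log2 difference was 4.60.

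The promoters of Myog, Acta1 and Myoz2, a Z disc protein that binds calcineurin, are shown because they hold the motifs that the MyoD family (the E-box CANNTG), MEF2 proteins (the MEF2 consensus) and serum response factor (the CArG box) are known to bind. Each line gives the 250 bases before the RefSeq start (GRCm38.p6), 5′ to 3′ on the strand of the gene, with these motifs in capitals. The windows are chr1:134289754-134290003 on the plus strand for Myog, chr8:123894776-123895025 on the minus strand for Acta1 and chr3:123034988-123035237 on the minus strand for Myoz2.
Myog: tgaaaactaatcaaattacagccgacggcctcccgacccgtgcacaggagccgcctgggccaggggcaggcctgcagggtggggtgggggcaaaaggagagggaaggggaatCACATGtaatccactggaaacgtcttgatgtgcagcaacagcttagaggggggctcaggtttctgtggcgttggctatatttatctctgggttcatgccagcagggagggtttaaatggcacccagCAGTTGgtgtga
Acta1: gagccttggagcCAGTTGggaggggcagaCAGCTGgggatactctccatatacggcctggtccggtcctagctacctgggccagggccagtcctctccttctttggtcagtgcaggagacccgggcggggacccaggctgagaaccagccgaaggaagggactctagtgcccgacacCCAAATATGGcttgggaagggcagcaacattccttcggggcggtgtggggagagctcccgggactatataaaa
Myoz2: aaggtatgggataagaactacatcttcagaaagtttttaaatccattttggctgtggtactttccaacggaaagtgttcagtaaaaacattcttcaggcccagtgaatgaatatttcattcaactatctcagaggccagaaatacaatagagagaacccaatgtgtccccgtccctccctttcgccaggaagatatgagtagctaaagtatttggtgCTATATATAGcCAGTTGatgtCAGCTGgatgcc
Myog held 2 E-boxes in this window, Acta1 2 E-boxes and a CArG box, and Myoz2 2 E-boxes and a match to the MEF2 consensus. CAGCTG, a form of CANNTG, occurred in 29.5% of the 132 windows of listed muscle genes called higher, in 17.6% of the 1707 windows of all genes called higher and in 13.0% of all 32851 windows. Any CANNTG occurred in 99 of the 132 windows of listed muscle genes, in 66.3% of those of all genes called higher and in 66.2% of all windows. In the same order, the MEF2 consensus occurred in 10.6%, 3.81% and 2.92%, and the CArG box in 6.06%, 1.7% and 1.47%. Each motif reads the same on both strands, a gene can have several windows, and a match is a description of the letters.

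Mymk (myomaker), the membrane protein that starts fusion, measured 925.6, 1034.9 and 1004.9 CPM and at most 0.342 elsewhere. Mymx (myomixer), its small partner that opens the fusion pore, measured 24.2, 21.9 and 22.5 CPM and had no read in the other 9 libraries. Cdh15 (M-cadherin) measured 280.7, 276.7 and 279.9 CPM and at most 0.358 elsewhere. All 3 were called, and the groups did not overlap. Itga7, the laminin receptor of muscle, Cdon, Ncam1 and Jam2 were called too, 7 of 10 adhesion and fusion genes in all (median lowest log2 difference 4.58). Boc, a partner of Cdon, was not, at 10.9, 12.2 and 12.4 CPM against 13.9 ± 0.64 in adipocytes, and Adgrb3 and Nphs1 were below the filter.

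The 21 thick filament and M band genes summed to 29385.3, 35275.0 and 33354.0 CPM in myotubes and to 3.94 to 31.1 CPM in the other 9 libraries. Of the 21, 20 were higher than in each other cell type, with a median lowest log2 difference of 10.41, and the remaining one, below the filter, was Myl3, the slow and ventricular light chain, at 0.866, 0.912 and 0.172 CPM. Of 20 thin filament genes 18 were called (median 9.37), and of 25 Z disc, titin and costamere genes 24 (median 8.97). The tested members without a call were Tpm3, a tropomyosin of many cell types, at 393.5, 429.6 and 437.1 CPM against 514.1 ± 34.9 in hepatocytes, and Sgcd, δ-sarcoglycan, at 16.8, 17.6 and 18.6 against 17.6 ± 1.02 in adipocytes.

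The embryonic form led the myosin heavy chains. Myh3 accounted for 65.8% ± 0.747 of the CPM per kb of 7 sarcomeric heavy chains (SD, n = 3). Myh1, the adult fast 2X chain, held 18.5% ± 0.726, Myh8, the perinatal chain, 7.02% ± 0.115, and Myh7, the slow chain, 6.43% ± 0.109. The adult fast chains Myh2 and Myh4 held 1.15% ± 0.106 and 1.15% ± 0.0753. Embryonic, perinatal, slow and fast chains were thus read in the same cultures. Myh3, Myh2, Myh1, Myh4 and Myh8 follow each other in this order on the plus strand of chromosome 11 (GRCm38, 67078300 to 67308634). In that order their shares per kb were 65.8%, 1.15%, 18.5%, 1.15% and 7.02%, highest for the first gene and without a steady decline after it.

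The other families were mixed in the same way. Actc1, the cardiac α-actin that embryonic skeletal muscle also uses, made up 28.1% ± 0.35 of the 2 sarcomeric actins per kb. Tnni1, the slow troponin I, made up 74.6% ± 2.33 of the troponin I genes. Tnnt3, the fast troponin T, made up 65.0% ± 0.246 of the troponin T genes, Tnnt1, the slow form, 21.0% ± 0.401, and Tnnt2, the cardiac form, 13.9% ± 0.166. Tnni3, the cardiac troponin I, was at 0.0859 to 0.274 CPM and below the filter.

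Per kb of exon, the highest protein-coding genes among those called higher were Acta1 at 5070.0 CPM per kb, Mylpf, the fast regulatory light chain, at 2916.7, Myl1 at 2353.5, Actc1 at 1986.4 and Tnnc1 at 1829.9. Of the first 10, Mb, the oxygen store myoglobin at 1220.6 CPM per kb, was the single one outside the sarcomere. Ttn, the giant spring of the sarcomere, measured 3157.9, 3571.2 and 4900.6 CPM, and its highest library was 1.55 times its lowest, the widest ratio among the 137 muscle genes called higher.

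**Figure D2:**
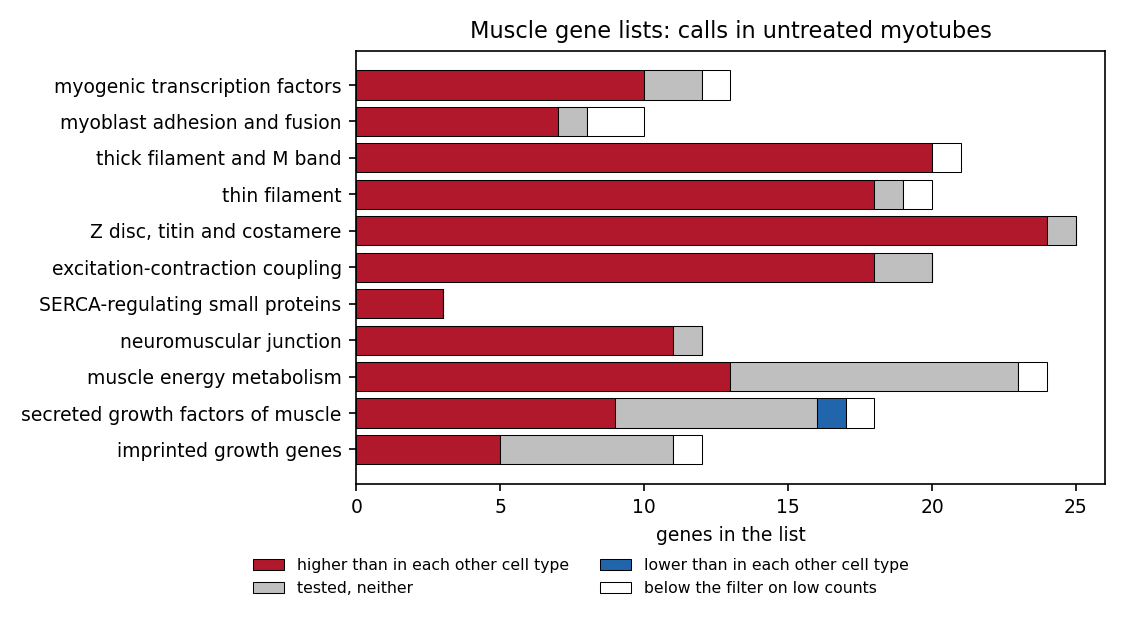
Number of genes in each of 11 muscle gene lists (x axis) that were higher than in each other cell type, tested but not called, lower than in each, or below the filter on low counts. Of the thick filament genes 20 of 21 were called, against 13 of 24 energy metabolism genes.

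The machinery that turns an action potential into calcium release was read as well. Ryr1, the calcium release channel of the sarcoplasmic reticulum, measured 955.0, 1105.8 and 1123.3 CPM and at most 0.569 elsewhere, and Cacna1s, the voltage sensor that opens it, 613.4, 670.2 and 658.1 and at most 0.602. Per kb, Casq2, the cardiac calsequestrin, stood at 584.3 CPM in myotubes and Casq1, the fast skeletal form, at 352.9. Of 20 genes of excitation-contraction coupling 18 were called (median lowest log2 difference 8.92, or 8.89 with genes unread elsewhere at their bound). Asph was not, at 124.6, 123.6 and 125.2 CPM against 148.4 ± 1.82 in macrophages, nor Kcnj2, an inward rectifier, at 64.8, 66.3 and 80.9 against 59.9 ± 4.05. Clcn1, the chloride channel of mature fibres, was called at 2.64, 3.21 and 3.44 CPM. Sln, Pln and Mrln, small membrane proteins that restrain the calcium pump, were all called, at 15.8 to 17.4, 5.6 to 7.47 and 3.09 to 3.69 CPM.

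Genes of the postsynaptic membrane were read in the absence of a nerve. Chrna1, the α subunit of the acetylcholine receptor, measured 1949.4, 2108.2 and 2061.4 CPM and at most 1.01 elsewhere. Chrng, the γ subunit of the fetal receptor, measured 346.5, 380.4 and 388.8 CPM, and Chrne, the ε subunit that replaces it in adult muscle, 2.83, 3.52 and 4.34. Per kb Chrng made up 97.7% ± 0.356 of the pair. Musk, Rapsn, Dok7 and Lrp4, which cluster the receptor, and Colq and Ache, which end its signal, were among the 11 of 12 genes called (median 7.79). Agrn, the clustering signal that nerves secrete, was not, at 33.0, 36.2 and 31.5 CPM against 162.5 ± 25.6 in hepatocytes.

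Energy metabolism was less set apart: 13 of 24 genes were called and the median lowest log2 difference was 1.12. The muscle isozyme made up most of the transcripts per kb in several families. Pygm, the muscle glycogen phosphorylase, measured 643.6, 737.1 and 750.4 CPM and made up 97.9% ± 0.504 of the 3 phosphorylases per kb, beside 0.355% ± 0.107 in adipocytes, 0.406% ± 0.309 in macrophages and 0.357% ± 0.146 in hepatocytes. Pygl, the liver form, was lower than in each other cell type, at 2.01, 1.69 and 1.67 CPM against at least 59.7 in every other library. Pfkm made up 95.3% ± 0.297 of the phosphofructokinases, Pgam2 68.7% ± 2.43 of the phosphoglycerate mutases and Cox6a2 80.3% ± 1.99 of the COX6A subunits of cytochrome oxidase. Their counterparts Pgam1 and Cox6a1 were lower in myotubes than in each other cell type, while Pfkl and Pfkp were not called. Eno3, the muscle enolase, made up 83.9% ± 0.599 of Eno1 and Eno3, and Eno1 has a near-identical copy in the annotation, so its reads are uncertain. The list of isozymes was drawn up after values were seen.

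Of the 3 calcium pumps, 2 were higher than in each other cell type. Atp2a1, the fast pump SERCA1, made up 58.7% ± 0.957 of the 3 pumps per kb in myotubes and at most 0.252% elsewhere. Atp2a2, the pump of slow muscle, heart and most other cells, measured 1483.9, 1695.1 and 1665.0 CPM in myotubes, 355.1 ± 42.6 in adipocytes, 282.2 ± 5.2 in macrophages and 484.7 ± 25.9 in hepatocytes. Genes shared with adipocytes were not called. Slc2a4, the insulin-regulated glucose transporter, measured 32.1, 41.6 and 38.2 CPM in myotubes and 87.8 ± 1.13 in adipocytes, and Cox7a1, a muscle form of a cytochrome oxidase subunit, 17.0, 22.7 and 21.3 and 83.0 ± 7.39.

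**Figure D3:**
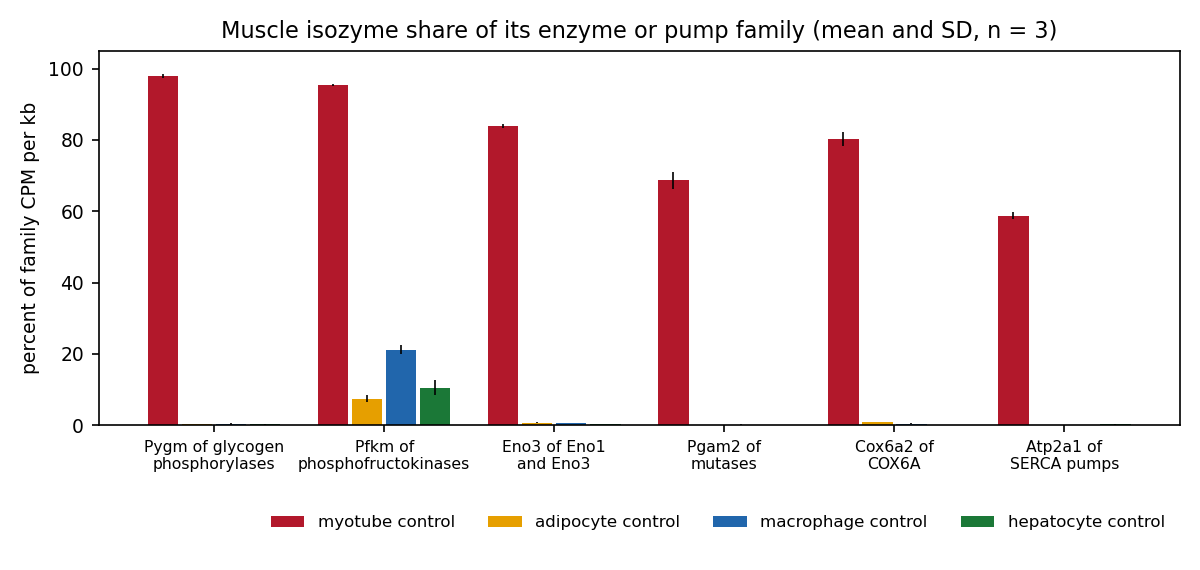
Share of the muscle isozyme in the summed CPM per kb of its enzyme or pump family (y axis, percent, from 0), as mean and SD of 3 libraries per cell type. The myotube bars run from 58.7% (Atp2a1) to 97.9% (Pygm), and the highest bar of another cell type is Pfkm in macrophages at 21.2%.

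Imprinted growth genes were partly shared with adipocytes. H19, a maternally expressed RNA, measured 11195.2, 13284.1 and 13096.3 CPM in myotubes, against 24.0 ± 1.9 in adipocytes, 6.25 ± 1.32 in macrophages and 5.81 ± 0.39 in hepatocytes. Igf2, the paternally expressed growth factor of the same cluster, measured 1940.6, 2291.8 and 2325.6 CPM and at most 6.73 elsewhere. Both lie on the minus strand of chromosome 7 (GRCm38, 142575529 to 142578143 and 142650766 to 142666816), and the log2 difference from adipocytes was 9.03 ± 0.15 (SE) for H19 and 8.49 ± 0.16 for Igf2. With Cdkn1c, Peg3 and Plagl1 they made 5 of 12 genes called (median 0.94). Grb10 was not called, at 135.7, 149.7 and 153.9 CPM against 139.1 ± 5.64 in adipocytes, nor were Meg3, Rian, Mest, Dlk1 and Igf2r.

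Among 18 growth factors secreted by muscle, 9 were higher and 1 lower than in each other cell type (median 1.11). Igfbp5, which binds IGFs, measured 936.9, 1059.7 and 1137.4 CPM, Fst, an inhibitor of myostatin, 408.2, 457.8 and 502.8, and Mstn, myostatin itself, 3.92, 4.43 and 4.9. Fgf21, known as a hormone of the liver, measured 19.5, 20.3 and 18.9 CPM in myotubes and 0.727 ± 0.252 in hepatocytes. These 4 were called higher. The lower one was Igf1, the relative of Igf2 that acts after birth, at 10.5, 8.56 and 7.94 CPM against 160.7 to 695.0 in the other libraries, a log2 difference of -4.28 ± 0.1 (SE) from hepatocytes (edgeR adjusted p = 1.22e-14). Il6 and Il15, both described as myokines, measured 0.912 to 1.28 and 0.73 to 1.26 CPM and were not called.

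A gene without a muscle name that set myotubes apart was Gm28653, a lincRNA on the plus strand of chromosome 1 (GRCm38, 20669882 to 20684298). It measured 114.0, 139.1 and 155.4 CPM with no read in the other 9 libraries, at least 2311.7-fold higher than in hepatocytes. RefSeq places miR-206 and miR-133b within its span on its strand. Other called genes span microRNAs in the same way: Myh7 spans miR-208b, Myh6 miR-208a, Myh7b miR-499 and H19 miR-675. Arpp21, Igf2, Myh3, Ryr1 and Ache also span microRNAs, which are not shown. The mature microRNAs were not measured here. The RefSeq sequences (GRCm38.p6) of the microRNAs named here are shown because their host transcripts set myotubes apart, with the seed, bases 2 to 8, in capitals.
miR-206-3p: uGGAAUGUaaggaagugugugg
miR-133b-3p: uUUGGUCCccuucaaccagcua
miR-208a-3p: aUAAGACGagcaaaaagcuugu
miR-208b-3p: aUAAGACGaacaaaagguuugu
miR-499-5p: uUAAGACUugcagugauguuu
miR-675-5p: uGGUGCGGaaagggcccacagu
The arms shown of miR-208a and miR-208b have the same seed, and each of the other arms has its own. The host transcripts measured 1082.6, 1380.5 and 1333.7 CPM for Myh7, 60.0, 63.9 and 67.2 for Myh7b and 2.23, 2.56 and 2.79 for Myh6, and Myh6 had no read elsewhere.

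Ranked by the lowest of their 3 log2 differences as fitted by edgeR, the first 20 genes at 10 CPM or more included Gm28653, Myf5, Arpp21, Smpx, Myod1, Art1, Mymx, Mybph, Myh7, Dcx, Psg28, Pdlim3, Tcap, Otog, Rbm24, Ano5, Mymk and Myoz2. Gm28653, Myf5, Mymx, Dcx, Psg28 and Otog had no read in the other 9 libraries, so their fitted values, and with them their places in this ranking, depend on how a model treats a count of 0. In limma-voom the lowest log2 difference was 9.98 for Myf5 and 9.49 for Dcx, below the 11.47 of Myog, which edgeR ranked after both. Smpx, a small protein of striated muscle, measured 305.8, 350.1 and 368.9 CPM, Rbm24, a muscle splicing factor, 262.3, 282.4 and 310.7, and Ano5, whose loss causes muscular dystrophy, 467.0, 539.0 and 529.0. None of the 3 exceeded 0.241 CPM in any other library. Arpp21, better known from striatal neurons, measured 225.9, 244.2 and 252.5 CPM with 6 reads elsewhere.

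Of these 6 genes with no read elsewhere, 3 carry the names of other tissues, and all 3 passed the filter through the myotube libraries alone. Dcx, the doublecortin of migrating neurons, measured 19.5, 21.1 and 23.2 CPM. Psg28, of the pregnancy-specific glycoproteins, measured 19.0, 22.9 and 21.9 CPM, and its assignment within a multigene family is uncertain. Otog, a matrix protein of the inner ear, measured 18.8, 19.6 and 16.7 CPM. Their highest myotube library was at most 1.21 times the lowest. Otog and Myod1 both lie on the plus strand of chromosome 7 (GRCm38, 46240987 to 46311434 and 46376474 to 46379099).

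The genes lowest in myotubes relative to every other cell type, each at 10 CPM or more in those, were Gvin1, Apoe, Trim34a, Pygl, Mgst1, H2-Q4, H2-D1, Oas1a, Igf1 and Parp14. Apoe, the apolipoprotein of lipid transport, measured 4.88, 4.69 and 4.12 CPM in myotubes, 699.3 to 922.6 in adipocytes, 4061.5 to 4226.0 in macrophages and 3360.2 to 3690.0 in hepatocytes. Its smallest log2 difference was -7.51 ± 0.13 (SE) from adipocytes (edgeR adjusted p = 9.37e-16). Mgst1, a membrane glutathione transferase, measured 3.24, 3.26 and 3.39 CPM and at least 97.9 elsewhere. Trim34a, Oas1a, Parp14 and Gvin1 are known as interferon-inducible, and H2-D1 and H2-Q4 are MHC class I heavy chains. Gvin1 and the class I genes have near-identical relatives, so their reads are uncertain.

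Presentation on MHC class I was followed in 10 genes chosen after these values were seen. They summed to 325.4, 308.7 and 243.3 CPM in myotubes and to 2551.4 to 5130.2 CPM in the other 9 libraries, without overlap, and 9 of 10 were lower than in each other cell type. H2-D1 measured 44.6, 39.8 and 20.3 CPM and at least 797.8 elsewhere. B2m, the light chain of class I molecules, measured 168.8, 166.6 and 141.5 CPM and at least 1051.6 elsewhere. H2-K1, the peptide transporters Tap1 and Tap2, Tapbp, the immunoproteasome subunits Psmb8 and Psmb9 and the class I transactivator Nlrc5 were also lower. Psmb10 was not called, at 12.7, 14.1 and 10.3 CPM against 18.9 ± 0.628 in macrophages.

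A list of 20 interferon-induced genes, also chosen after values were seen, summed to 111.4, 93.8 and 76.9 CPM in myotubes, 418.2 to 461.2 in macrophages, 1267.3 to 1476.4 in hepatocytes and 1590.0 to 2644.5 in adipocytes. In it 14 of 20 genes were lower than in each. Isg15, Ifit1, Ifit2, Ifit3, Oas2 and Mx1 were not called. Isg15 measured 2.1, 1.35 and 0.601 CPM in myotubes and 2.18 ± 0.355 in macrophages, and Ifit2, which did not follow the list, 22.8, 20.1 and 22.3 and 8.86 ± 1.2. In both lists the sum was highest in myotube replicate 1 and lowest in replicate 3, as for the macrophage genes below, and the part of other cells in these values was not tested.

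**Figure D4:**
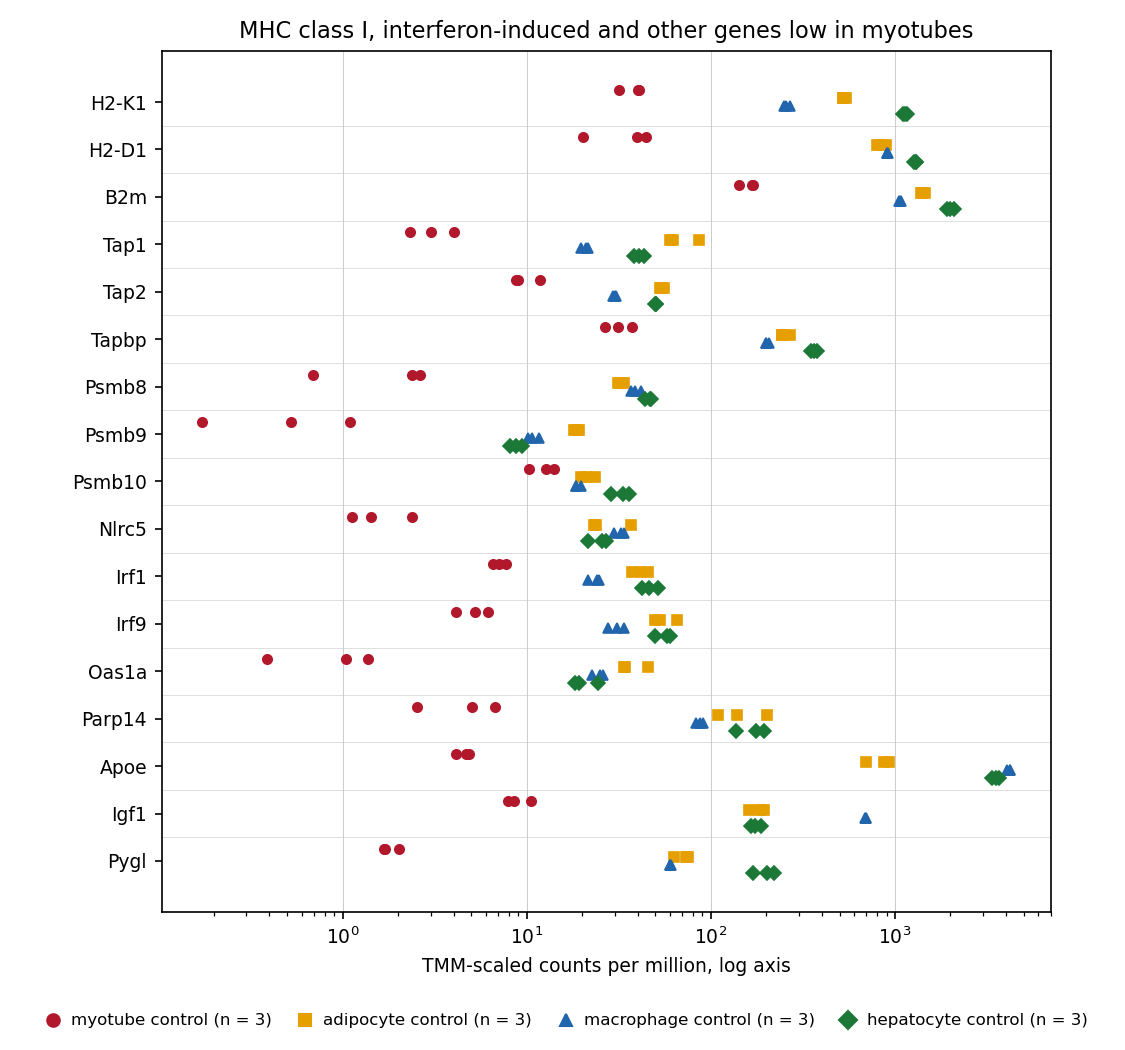
TMM-scaled CPM (x axis, log scale) of 17 genes of antigen presentation, interferon response and metabolism in the 12 control libraries, 1 symbol per library and 3 per cell type. The myotube libraries lie to the left of all others for each gene shown, with the narrowest gap for Psmb10 (10.3 to 14.1 CPM against at least 18.5). The uncalled interferon genes Isg15, Ifit1, Ifit2, Ifit3, Oas2 and Mx1 are not drawn.

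Other cells in the cultures were followed with lists of their markers. In bulk RNA, fewer cells of a type and less RNA per cell cannot be told apart. The 19 macrophage genes were read in every myotube library and summed to 610.0, 500.6 and 219.3 CPM, which was 2.37%, 1.95% and 0.853% of the mean in the macrophage libraries. The sum was 574.6 to 663.0 CPM in adipocyte cultures and 298.1 to 343.4 in hepatocyte cultures. In hepatocytes most of it was Cd14 (206.2 ± 11.8 CPM) and Cd68 (90.8 ± 10.5 CPM). All 19 genes were lower than in the macrophage libraries, which is a property of the choice, so a call as higher than in each other cell type was not open to them. Against hepatocytes 16 were higher and 2 lower, and against adipocytes 2 were higher and 6 lower. Cd14 was lower than in each.

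Csf1r, the receptor that macrophages need to survive, measured 45.4, 37.4 and 14.2 CPM in myotubes, 1394.6 ± 28.0 in macrophages, 47.3 ± 1.02 in adipocytes and 1.6 ± 0.406 in hepatocytes. Lyz2, the lysozyme of myeloid cells, measured 155.6, 120.1 and 66.0 CPM, and C1qa, of the complement system, 46.3, 34.8 and 14.0. The ratio to the macrophage level was not even across genes, with means from 0.918% for Lyz2 to 14.5% for Aif1. C1qa stood at 13.6, 10.2 and 4.12% of its macrophage level in the 3 libraries. Cx3cr1, a receptor of resident macrophages, measured 9.76, 8.34 and 3.44 CPM in myotubes and 0.154 ± 0.0463 in adipocytes. All 19 genes were lowest in replicate 3 and 18 were highest in replicate 1.

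MHC class II genes, used by dendritic cells, B cells and activated macrophages, were also lowest in replicate 3. Cd74, the invariant chain, measured 56.8, 47.4 and 6.53 CPM in myotubes and 30.5 ± 0.887 in macrophages, so that 2 myotube libraries lay above the macrophage libraries and the other below. H2-Aa measured 13.0, 11.8 and 1.72 CPM, against 5.39 ± 0.653 in macrophages. H2-Eb1, at 6.57, 5.91 and 1.29 CPM against 1.9 ± 0.279 in macrophages, was called higher than in each other cell type, with a log2 difference of 1.26 ± 0.42 (SE) from macrophages (edgeR adjusted p = 0.0117), although its replicate 3 lay below the macrophage mean. Defining dendritic cell genes were near 0: Flt3 measured 0.0912, 0 and 0 CPM, Cd209a had no read, and Itgax measured 1.0, 1.26 and 0.472 against 30.4 ± 2.03 in macrophages.

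Genes of dividing cells were low but present. The 15 genes summed to 188.4, 147.2 and 111.4 CPM in myotubes, 203.4 to 326.9 in adipocytes and hepatocytes and 2493.0 to 2548.2 in macrophages. Mki67 measured 33.5, 25.9 and 16.2 CPM and Top2a, the topoisomerase of dividing cells, 25.9, 17.6 and 10.6. Mcm3, Mcm5, Mcm6 and Pcna, which act in DNA replication, were lower than in each other cell type, and no gene of the list was higher. All 15 were lowest in replicate 3 and 14 were highest in replicate 1. Of the 137 muscle genes called higher in the 11 lists, 119 were lowest in replicate 1. The share of all tested genes with the same order was not computed for these, the dividing cell or the macrophage genes. Whether the orders differ from a shift of the whole library was therefore not tested. Genes of a list are not independent, and all orders come from the same myotube libraries. Whether the share of other cells moves the values of these lists was not tested.

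**Figure D5:**
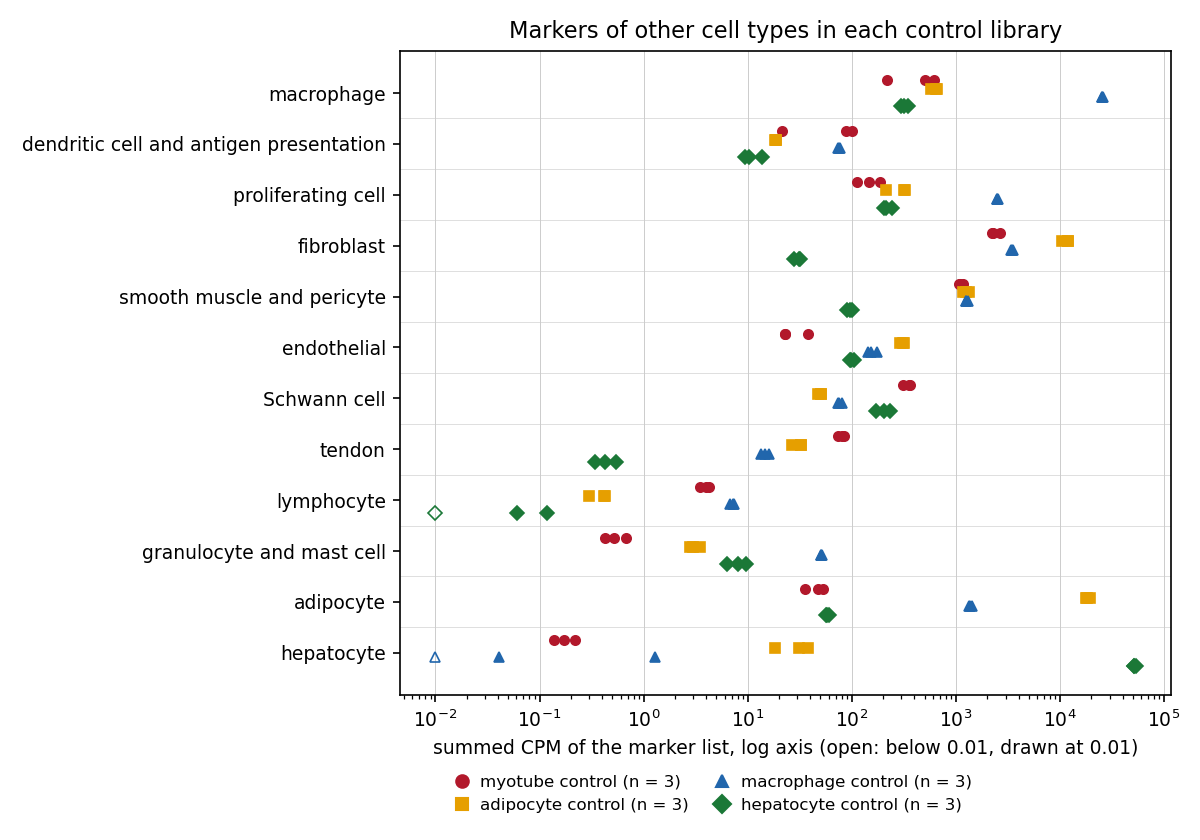
Summed TMM-scaled CPM (x axis, log scale) of 12 marker lists in the 12 control libraries, 1 symbol per library and 3 per cell type. The myotube libraries carry macrophage markers at 219.3 to 610.0 CPM, beside 574.6 to 663.0 in adipocyte and 298.1 to 343.4 in hepatocyte cultures, and adipocyte and hepatocyte markers at 35.9 to 53.3 and 0.137 to 0.217 CPM.

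Fibroblast genes were read in myotubes below the level of the adipocyte cultures. The 15 genes summed to 2646.5, 2249.3 and 2243.6 CPM, against 10498.7 to 11875.4 in adipocytes, 3366.1 to 3529.8 in macrophages and 27.8 to 31.9 in hepatocytes. Col1a1, a chain of type I collagen, measured 867.1, 712.4 and 725.8 CPM in myotubes and 3355.3 ± 294.7 in adipocytes, and Pdgfra, the receptor of mesenchymal progenitors, 8.48, 9.51 and 9.62 and 193.4 ± 29.9. Of the 15, 13 were lower than in adipocytes, while 6 were higher and 1 lower than in macrophages, and none was higher or lower than in each other cell type.

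Schwann cell and tendon lists held several members higher in myotubes. Sox10, a transcription factor of glia, measured 4.79, 6.43 and 5.32 CPM, against 1.54 ± 0.231 in adipocytes, a log2 difference of 1.83 ± 0.2 (SE, edgeR adjusted p = 6.92e-07). Foxd3 and Cdh19, also known from glia, were among the 4 of 9 genes called. Of the other members, 2 were lower than in adipocytes: S100b, a calcium-binding protein of glia, and Mbp, a myelin protein that was also lower than in macrophages. Most of that list's sum was Erbb3, the neuregulin receptor, at 265.7, 307.5 and 302.8 CPM against 197.3 ± 29.4 in hepatocytes. Scx, a factor of tendon progenitors, measured 73.2, 77.8 and 68.9 CPM and at most 1.09 elsewhere, and Mkx was called as well. Tnmd and Fmod, genes of mature tendon, measured at most 0.0456 and 0.137 CPM in myotubes.

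Endothelial genes were scarce, with 7 of 12 lower than in each other cell type and no read of Tie1. Tek, an angiopoietin receptor, measured 8.48, 0.261 and 0.601 CPM, high in replicate 1 alone, as was Myh11, the smooth muscle myosin, at 2.92, 0.565 and 0.429. Smooth muscle and pericyte genes summed to 1083.3 to 1163.2 CPM in myotubes, 1183.2 to 1350.1 in adipocytes, 1239.7 to 1304.1 in macrophages and 89.9 to 100.9 in hepatocytes. In myotubes the sum was mostly Acta2, which myoblasts can also express, at 698.7, 681.1 and 663.1 CPM. Smtn and Abcc9 were the 2 of 12 called higher.

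The 10 hepatocyte genes summed to 0.137 to 0.217 CPM in myotubes, and 6 of them had no read. The 10 adipocyte genes summed to 53.3, 47.8 and 35.9 CPM, against 57.0 to 60.6 in hepatocytes. Most of that sum was Lpl, the lipoprotein lipase that muscle also uses, at 46.1, 40.9 and 30.0 CPM, while Adipoq, Plin1, Cidec, Lep and Retn had no read. Both lists mark cell types of the series, so being low in myotubes is a property of the choice. Among 11 lymphocyte genes Cd3g alone was called, at 2.64, 2.87 and 2.75 CPM with no read elsewhere, while Cd3e measured 0.502, 0.521 and 0.429 and Cd4, Cd8a and Ms4a1 had no read in myotubes. Of 9 granulocyte and mast cell genes none was higher and Kit was lower, and of 5 erythroid genes none was called.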

How the data were processed

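RNA of 12 control cultures was compared, 3 each of 4 primary mouse cell types. Per the labels and methods, the authors assigned paired-end reads to GENCODE transcripts (GRCm38.p6) with Salmon 1.2.1 and summed them per gene with tximport. The deposited unit is the estimated count per gene. The methods name scaling by transcript length and library size, but 55.6% of the values above 0 are whole (within 1e-09), so the values were treated as unscaled. Symbols, positions and exon lengths came from GENCODE M21 on the same build, which held 54094 of 54347 genes.

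The counts were rounded, and 1 model of the 12 control libraries was fitted by quasi-likelihood in edgeR 4.0.16 (R 4.3.3) with TMM scaling. CPM are TMM-scaled, and per kb values use merged exons. Alternatives covered scaling, filter, limma-voom (limma 3.58.1), DESeq2 1.42.0, all 36 libraries, a replicate block, the fold minimum and leaving out each library. On simulated data for myotubes against each other cell type (14951 genes), 50 of 50 genes changed 4-fold and 7 of 50 changed 2-fold, the minimum itself, were called, with 0 false calls. In the simulation all cell types had the same mean profile and a fixed spread, and only well-read genes were changed. It therefore gives no error rate for the real comparisons and does not cover genes near the filter.

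The members, lists and rules were chosen with earlier results of these data known. The named genes are listed genes, the 20 highest and 10 lowest of the ranking described, and 5 uncalled genes with the widest spread over the myotube libraries. The lists of isozymes, MHC class I and interferon genes were added after values were seen, as was the choice of listed genes described in the text. Deviations of same-numbered libraries correlated between -0.045 and 0.043 over 18 pairs, so the numbers do not pair the samples. Replicates differed by 2.68 to 17.03 in chi-square per gene, above sampling noise. Bounds from 3 reads cover counting error only. Some genes of these lists and rankings are not reported here.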

Additional observations from a re-analysis of the deposited data

How the results depend on the processing

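The 20 highest and 10 lowest genes of the rankings and the 4 markers were recomputed under 21 alternatives, and these 34 genes kept their direction and call. Their sizes did move for genes at or near 0 reads in a group: in limma-voom the lowest log2 difference went from 14.52 to 12.16 for Gm28653, from 12.33 to 9.98 for Myf5 and from 11.84 to 9.49 for Dcx, and without myotube replicate 1 that of Gvin1 went from -9.73 to -13.2, so the order and membership of the ranking depend on the model. The 34 lay far from the fold minimum, the nearest being Parp14 at a log2 difference of -4.2, so these settings could hardly remove a call. The other listed genes, among them H2-Eb1 near the minimum, were not recomputed one by one. Counts of calls moved by over 1.5 times only with the fold minimum. Without one, the genes higher and lower were 3262 and 2491 against each cell type, 5891 and 5894 against adipocytes and 6491 and 5912 against macrophages, and 6179 were lower than in hepatocytes. At a fold of at least 4 they were 1193 and 269, 1861 and 1520, and 2461 and 1787, and 1831 were lower than in hepatocytes. Leaving out each library in turn gave 1800 to 1860 genes higher and 732 to 813 lower than in each other cell type.

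No pairing by replicate number was seen, and a model with a replicate block called 1823 genes higher and 776 lower than in each, of which 1821 and 772 were shared with the model without it. Scaling by library totals moved the median log2 difference from hepatocytes from 0.085 to 0.307. The macrophage list stood at 1.73% ± 0.784 (SD, n = 3) of its macrophage level, at 1.4% without myotube replicate 1 and at 2.16% without replicate 3. Values below about 0.1 CPM rest on a few reads.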

Other observations

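The 66 genes of the 3 sarcomere lists stood at 0.902% to 1.9% of their mean myotube level in the other cultures. Their thin filament genes, which include tropomyosins that many cell types use, summed to 525.8 to 1354.0 CPM there. The thick filament genes summed to 31.1, 28.3 and 23.6 CPM in the hepatocyte libraries, 3.94, 13.1 and 7.4 in the macrophage and 10.3, 12.2 and 12.0 in the adipocyte libraries. Myh3 made up 66.2% ± 11.0 of the sarcomeric heavy chains per kb in hepatocytes (SD, n = 3), beside 65.8% ± 0.747 in myotubes, whereas in adipocytes Myh1 held 56.2% ± 4.49 and Myh3 26.0% ± 2.35. In macrophages Myh3 held 54.5% ± 11.5, Myh7 15.4% ± 14.1 and Myh1 14.3% ± 14.8.

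Nnt, the mitochondrial transhydrogenase whose gene is known to be truncated in the C57BL/6J substrain, measured 54.5, 50.8 and 32.6 CPM in myotubes, beside 49.8 ± 24.0 in hepatocyte, 37.7 ± 4.21 in macrophage and 8.59 ± 4.07 in adipocyte cultures.

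The 5 uncalled genes with the widest spread over the myotube libraries were Gm29216, Cd74, Igfbp2, Tgfbi and Cybb. Gm29216, an unprocessed pseudogene on chromosome 1 (GRCm38, 24615706 to 24616197), measured 157.1, 10.9 and 44.9 CPM in myotubes, beside 1310.2 ± 110.8 in adipocyte, 756.2 ± 395.8 in hepatocyte and 9.34 ± 9.36 in macrophage cultures. Tgfbi, an extracellular matrix protein, measured 36.6, 29.4 and 9.06 CPM and Cybb, a subunit of the phagocyte oxidase, 22.0, 18.1 and 5.93, both in the order of the macrophage genes. Igfbp2, which binds IGFs, measured 35.1, 6.6 and 7.17 CPM and was high in replicate 1 alone.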
